A study of Mus musculus with 10 samples.

Results

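The genes described here are 9 genes that encode enzymes of the citric acid cycle, namely Cs, Idh3a, Idh3b, Idh3g, Ogdh, Dlst, Suclg1, Fh1 and Mdh2. They were taken by symbol from the 29564 genes listed in RNA-seq data of the mouse left ventricle. All 9 are listed, and 8 of them were among the 13317 genes tested. The remaining member, Idh3a, was listed at 0 in most mice and is described on its own. The question was whether these genes differed between the left ventricles of control and HFD+mTAC mice, a mouse model of diastolic heart failure (HFpEF).

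The control group held 5 mice (TT-583 to TT-587) and the HFD+mTAC group another 5 (numbers TT-588 to TT-592). All were wild-type (WT) males of the C57BL6 strain (C57BL/6J in the methods) treated with vehicle, which the labels give as 10 mL/kg once daily over 6 to 9 weeks. HFD+mTAC mice underwent moderate transverse aortic constriction, surgery that partly constricts the aorta so that the left ventricle pumps against a higher pressure, at 11 weeks of age and received a high-fat diet from then on, with an induction period of 16 weeks. Control mice are labelled as non-failing, and the methods describe control animals as neither operated on nor given the high-fat diet, so that the operation and the diet cannot be told apart in this comparison.

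The citric acid cycle runs in the mitochondrial matrix, where it oxidizes acetyl-CoA from fatty acids, glucose and ketone bodies and hands the electrons to the respiratory chain as NADH and as reduced flavin. Heart muscle is dense in mitochondria and relies on this pathway for most of its ATP. Citrate synthase (Cs) opens the cycle by joining acetyl-CoA to oxaloacetate. NAD-dependent isocitrate dehydrogenase (Idh3a, the catalytic subunit, with Idh3b and Idh3g) and the oxoglutarate dehydrogenase complex (Ogdh, its first component, and Dlst, its succinyltransferase core) carry out the oxidative decarboxylations. Succinyl-CoA ligase (Suclg1 is its alpha subunit), fumarase (Fh1) and mitochondrial malate dehydrogenase (Mdh2) then lead back to oxaloacetate. All 9 genes are in the nuclear genome.

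Promoter sequences from RefSeq (GRCm38.p6, 250 bases before to 50 bases after each start) were found for 8 of the 9 members, with 13 promoters in all, 6 of them at Ogdh. They were searched on both strands for TCAAGGTCA (the ERR element), CGCATGCGC (NRF1), CCGGAAGT (GABP), AAGATGGCG (YY1), TGACGTCA (the cAMP response element, CRE) and CACGTG (E-box), which are elements known from promoters of mitochondrial genes. The 4 promoters shown are those of members that hold a match, with the 1 that starts first for Ogdh. They are written 5′ to 3′ on the strand of the gene, and capitals mark the match. Their positions are chr11:6291347-6291646 (plus strand) for Ogdh, chr5:135778399-135778698 (plus strand) for Mdh2, chr12:85110583-85110882 (plus strand) for Dlst and chrX:73786848-73787147 (minus strand) for Idh3g.
Ogdh: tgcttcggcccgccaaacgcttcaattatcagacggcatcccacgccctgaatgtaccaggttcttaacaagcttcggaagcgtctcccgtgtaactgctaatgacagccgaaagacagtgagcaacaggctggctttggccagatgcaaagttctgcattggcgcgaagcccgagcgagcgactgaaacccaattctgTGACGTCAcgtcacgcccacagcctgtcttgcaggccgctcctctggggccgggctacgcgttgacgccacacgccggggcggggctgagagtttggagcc
Mdh2: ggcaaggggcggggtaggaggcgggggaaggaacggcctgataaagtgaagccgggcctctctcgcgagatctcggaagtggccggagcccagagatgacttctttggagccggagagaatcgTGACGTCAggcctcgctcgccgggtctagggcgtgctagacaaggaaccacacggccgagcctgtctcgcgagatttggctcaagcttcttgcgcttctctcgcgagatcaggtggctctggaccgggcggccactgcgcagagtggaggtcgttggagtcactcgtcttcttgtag
Dlst: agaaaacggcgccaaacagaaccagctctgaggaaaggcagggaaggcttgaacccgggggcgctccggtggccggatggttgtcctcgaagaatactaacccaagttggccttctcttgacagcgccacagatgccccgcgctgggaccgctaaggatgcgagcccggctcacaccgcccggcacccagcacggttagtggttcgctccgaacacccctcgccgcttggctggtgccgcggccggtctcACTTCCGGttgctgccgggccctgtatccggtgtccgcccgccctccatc
Idh3g: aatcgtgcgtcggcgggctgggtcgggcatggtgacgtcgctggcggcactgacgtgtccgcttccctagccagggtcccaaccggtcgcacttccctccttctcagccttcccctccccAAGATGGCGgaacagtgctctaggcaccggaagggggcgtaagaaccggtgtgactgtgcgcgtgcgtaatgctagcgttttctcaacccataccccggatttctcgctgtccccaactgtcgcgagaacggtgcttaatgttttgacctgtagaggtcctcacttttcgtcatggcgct

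The CRE letters stood in the promoters of Ogdh, from position -51 relative to its start, and of Mdh2, from position -127. They are held by 1.79% of 32851 promoters of the same length. The Dlst match to GABP, on the opposite strand, began at the start itself, and this motif is in 3.89% of promoters. Idh3g held the YY1 motif from position -130, a motif found in 1.4% of promoters. Further Ogdh promoters downstream held the E-box (7.15% of promoters) and the NRF1 motif (1.75%), and the first 3 of its promoters overlap and share the same CRE match. None of the promoters of Cs, Idh3b, Suclg1 and Fh1 held any of these letters, and the ERR element, in 0.423% of promoters, was in no member's window. A match is a description of the letters only.

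None of the 8 tested members passed the test between the groups. In edgeR's quasi-likelihood test, 0 of 8 had an adjusted p under 0.05, where 9 of 13317 genes, or 0.0676%, did. The number of members at an unadjusted p under 0.05 was also 0, with edgeR, DESeq2 and limma alike, against a share of 8.25% of all genes tested with edgeR. The 2 groups overlapped for each of the 8 members, whereas 1.91% of all genes had groups that did not overlap. Fold changes were below 0 in 7 members and above 0 in 1, beside 50.4% of all genes below 0. The median log2 fold change of the members was -0.03, against -0.0016 for all genes tested. It was 0.0221 without mouse TT-591 and between -0.0773 and -0.0112 without each of the other mice in turn, so that its sign rests on that mouse.

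**Figure D1:**
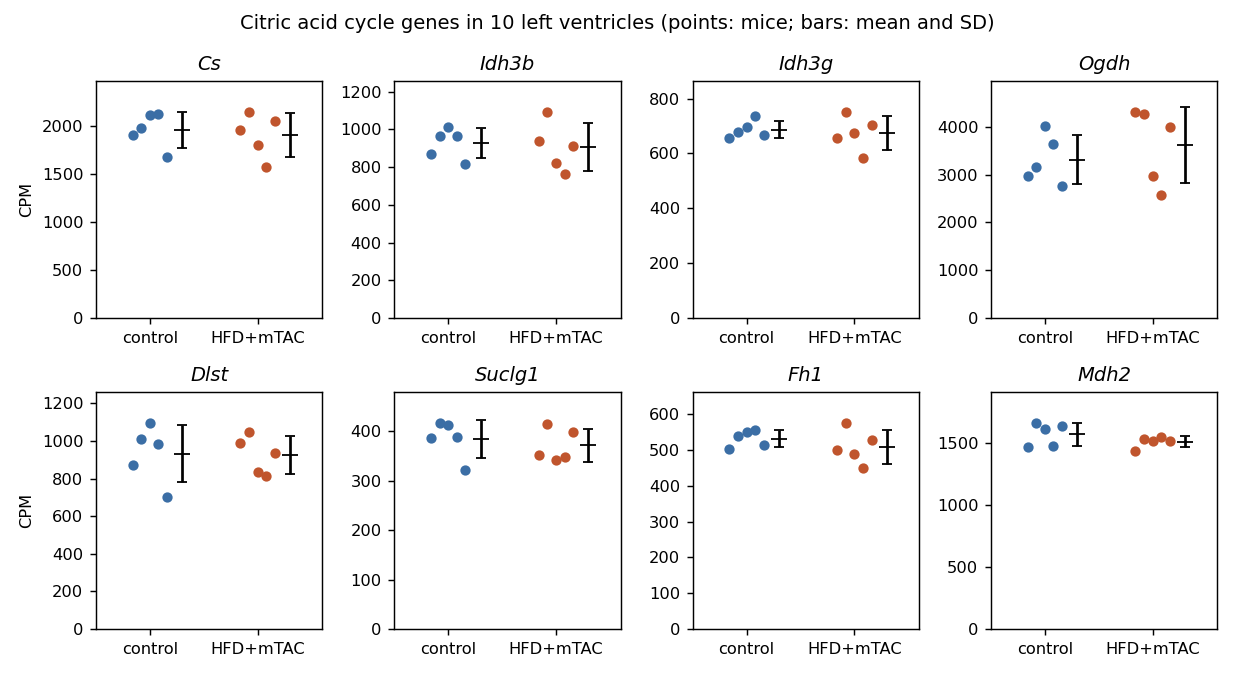
Normalised counts (CPM, linear axis from 0) of the 8 tested cycle genes, with 1 point per mouse and the mean and SD of the 5 mice of each group beside them. The points of the groups overlap in each panel, and Ogdh has the widest spread, from 2564 to 4307 CPM.

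Levels within a gene are given as CPM, which are counts scaled by edgeR's TMM factors to a common library size. The gene for citrate synthase, Cs (chromosome 10, 128337734 to 128362479 in GRCm38), had 1907, 1978, 2113, 2129 and 1675 CPM in the control group, in the order of mouse numbers used throughout. In the HFD+mTAC group, TT-588 first, Cs was at 1965, 2148, 1803, 1571 and 2057 CPM. Mice TT-587 and TT-591 were the lowest of their groups, and the means were 1960 ± 184.8 (SD, n = 5) and 1909 ± 228.2 (SD, n = 5). The log2 fold change of Cs was -0.04 (standard error 0.10), with a 95% interval from -0.26 to 0.19 and an adjusted p of 0.953 in edgeR.

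The regulatory subunits of isocitrate dehydrogenase gave the same picture. Idh3b (chromosome 2, 130279309 to 130284547) was at 868.6, 962.9, 1013, 964.5 and 818.8 CPM in the control mice. Its values in HFD+mTAC mice were 937.8, 1092, 824, 761.8 and 914 CPM. The highest and the lowest of the 10 values, in mice TT-589 and TT-591, were both in the HFD+mTAC group. The fold change of Idh3b on the log2 scale was -0.03 (95% interval -0.26 to 0.20, edgeR adjusted p = 0.965).
Idh3g, on the X chromosome (73778963 to 73786897), ranged from 657.8 to 736 CPM in control mice and from 583.9 to 751.1 CPM in HFD+mTAC mice. The mice with the extreme values were again TT-589 and TT-591. Its log2 fold change was -0.03 (95% interval -0.21 to 0.15, edgeR adjusted p = 0.958).

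Idh3a (chromosome 9, 54586334 to 54604661), which encodes the catalytic subunit that Idh3b and Idh3g need as a partner, was listed at an estimated count of exactly 0 in 8 of 10 mice. The exceptions were control mouse TT-587, with an estimated count of 1346 (3.756 TPM, the length-scaled share of transcripts that the authors deposited), and HFD+mTAC mouse TT-591, with 5186 (13.23 TPM). Both of its partner subunits had at least 583.9 CPM in each of the 10 mice. Among the 29564 genes, 9 were at 0 in at least 1 mouse and above 2000 in another, 5 of them protein-coding, and Idh3a was the only 1 of the 9 at 0 in at least 5 mice. A value of 0 in files of estimated counts can be a failed assignment of reads, and why Idh3a is at 0 was not tested. No group mean, fold change or test is given for it, and it failed the filter of at least 1 count in 9 of 10 mice. The same mice TT-587 and TT-591 had the lowest values of Ogdh and of Cs.

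Ogdh (chromosome 11, 6291633 to 6356642), the decarboxylase that opens the oxoglutarate dehydrogenase complex, varied the most. Its values were 2976, 3151, 4008, 3647 and 2762 CPM in control mice. In HFD+mTAC mice they were 4307, 4263, 2977, 2564 and 3996 CPM. In both groups the mice divided into a higher set (TT-585, TT-586, TT-588, TT-589 and TT-592, at 3647 CPM or more) and a lower set (TT-583, TT-584, TT-587, TT-590 and TT-591, at 3151 CPM or less), and each set held mice of both groups. The means were 3309 ± 509.5 (SD, n = 5) and 3621 ± 799.3 (SD, n = 5), and the log2 fold change of Ogdh was 0.13 (standard error 0.16, 95% interval -0.21 to 0.47, edgeR adjusted p = 0.896). Its partner Dlst (chromosome 12, 85110833 to 85134845) had 869.3, 1011, 1097, 983.7 and 701.4 CPM in the control group and 991, 1047, 832.9, 811.3 and 935.6 CPM with HFD+mTAC. Control mouse TT-587 was the lowest of the 10 mice for Dlst, and the log2 fold change was -0.01 (95% interval -0.28 to 0.25, edgeR adjusted p = 0.988).

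Suclg1 (chromosome 6, 73248382 to 73276911) encodes the subunit shared by the ATP-forming and GTP-forming succinyl-CoA ligases. It ranged from 321.2 to 417.4 CPM in control mice and from 342.7 to 415.6 CPM in HFD+mTAC mice, so that the HFD+mTAC range lay inside that of the control mice. Its log2 fold change on counts was -0.05 (95% interval -0.26 to 0.15, edgeR adjusted p = 0.931).
Fh1 (chromosome 1, 175600374 to 175625635), which encodes fumarase, averaged 532.2 ± 23.0 CPM in the control group (SD, n = 5) and 509.1 ± 47.7 CPM with HFD+mTAC (SD, n = 5). The HFD+mTAC mice spanned the wider range, from 448.7 CPM in mouse TT-591 to 576.7 CPM in mouse TT-589. The log2 fold change of Fh1 was -0.06 (95% interval -0.24 to 0.11, edgeR adjusted p = 0.903).
Mdh2 (chromosome 5, 135778480 to 135790398) makes the oxaloacetate that citrate synthase uses. It had 1463, 1662, 1613, 1473 and 1635 CPM in control mice, and 1431, 1534, 1515, 1549 and 1512 CPM in HFD+mTAC mice. No mouse stood far from the others for Mdh2, whose log2 fold change was -0.06 (95% interval -0.22 to 0.10, edgeR adjusted p = 0.904).

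As folds, these intervals reach from 0.86 to 1.07 for Mdh2, the narrowest, and from 0.86 to 1.39 for Ogdh, the widest. For the 8 members taken singly, no interval of this edgeR fit on counts extends below a fold of 0.82 or above 1.39. Intervals of the fold changes in other fits are not given, and Suclg1 had a log2 fold change of 0.38 in limma on log2(TPM + 1). In bulk tissue, fewer cells of a type and less RNA per cell cannot be told apart.

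**Figure D2:**
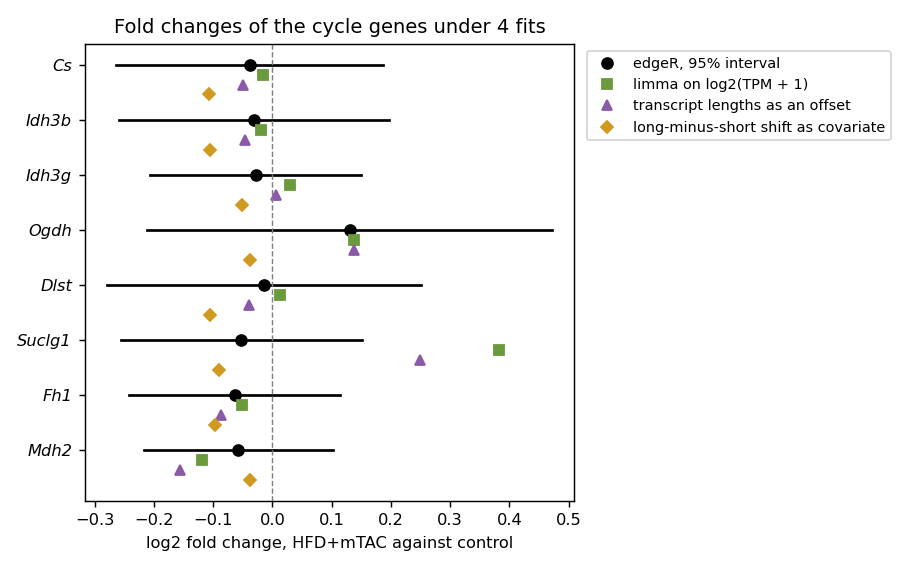
Log2 fold change of each tested cycle gene in HFD+mTAC against control mice (n = 5 per group). Black points are the edgeR values with 95% intervals as lines, and coloured symbols are 3 other fits without intervals. All 8 black intervals include 0, and Suclg1 is at -0.05 in edgeR but at 0.38 in limma on log2(TPM + 1).

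In several mice, most of the tested members were high or low together, across both groups. Of the 7 tested members other than Mdh2, all 7 were above their own 10-mouse mean (of log2 CPM) in control mice TT-585 and TT-586 and in HFD+mTAC mice TT-589 and TT-592. None of the 7 was above its mean in control mouse TT-587 or in HFD+mTAC mice TT-590 and TT-591. The other mice were mixed, with 1 of 7 in mouse TT-583, 5 of 7 in mouse TT-584 and 4 of 7 in mouse TT-588. The median difference from the mean over the 8 members was lowest in mouse TT-591 (-0.21 on the log2 scale) and highest in mouse TT-589 (0.15), both of the HFD+mTAC group. Mdh2 kept apart, since it was above its mean in mice TT-587 and TT-591, where the other 7 were below theirs. Leaving Mdh2 out was not planned. With Mdh2, the number above the mean was 8 of 8 in mouse TT-585 and 7 in mice TT-586, TT-589 and TT-592. It was 0 in mouse TT-590 and 1 in mice TT-587 and TT-591. The 8 values of a mouse come from 1 library and are not independent, and no test is given for this pattern. How many other genes follow it was not counted. The TMM factors were 1.013, 1.019 and 1.05 in mice TT-587, TT-590 and TT-591. In mice TT-585, TT-586, TT-589 and TT-592 they were 0.9588, 0.9983, 0.9732 and 1.012, and their part in the pattern was not tested.

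The libraries also differed in the balance of long and short transcripts. This balance was taken as the median log2 difference from the mean over 3662 genes with effective lengths of at least 4000 bases, minus that over 2362 genes under 1500 bases. It was -0.05, -0.09, 0.07, 0.01 and -0.13 in the control group and 0.22, 0.08, -0.12, -0.06 and 0.05 with HFD+mTAC, in order of mouse number. The 5 mice in the higher set of Ogdh, the member with the longest transcripts, were the 5 mice with a balance above 0. Of these, mouse TT-586 was close to 0, at 0.008, and Ogdh is itself among the long genes of the balance. With the balance as a covariate in edgeR, an alternative added after the data were seen, the log2 fold change of Ogdh was -0.04 and its standard error fell from 0.16 to 0.09. In that fit all 8 fold changes were below 0, the lowest being that of Cs at -0.11, and the smallest adjusted p of edgeR was 0.629, for Fh1. The cause of the spread of Ogdh, and of its match with the balance, was not tested.

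**Figure D3:**
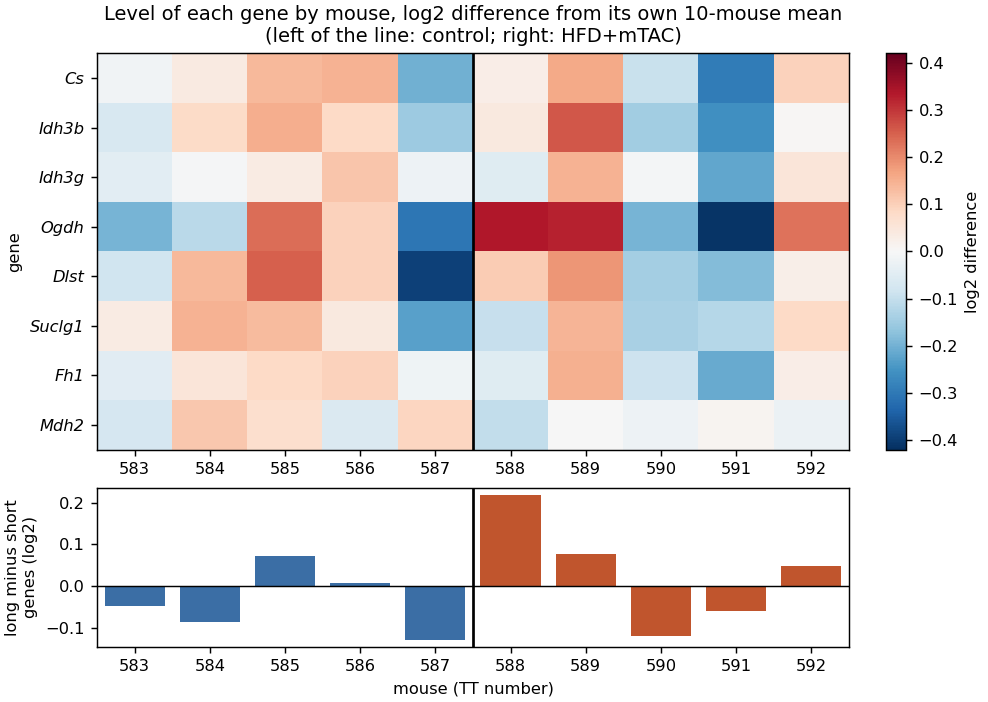
Upper panel, log2 CPM of each tested cycle gene in each mouse as the difference from the gene's own mean over 10 mice (red above, blue below), with control mice left of the line and HFD+mTAC mice right of it. Lower panel, the balance of long and short transcripts of each library, which runs from -0.13 in mouse TT-587 to 0.22 in mouse TT-588 and has the sign of the Ogdh row in every mouse.

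Relative to other abundant genes, the spread of the members was not large. The SD of log2(CPM + 1) over the 10 mice was 0.07 for Mdh2, 0.10 for Idh3g and Fh1, 0.14 for Suclg1, 0.15 for Cs, 0.16 for Idh3b, 0.20 for Dlst and 0.28 for Ogdh. The median over 1781 genes with a mean of at least 100 CPM was 0.18, and 2 members, Ogdh and Dlst, were above it. From the lowest to the highest mouse, Mdh2 varied 1.16-fold and Ogdh 1.68-fold.

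Within-mouse ratios of members do not depend on how a library is scaled. Of 5 ratios planned, the 2 with Idh3a could not be computed. The log2 TPM ratio of Idh3b to Idh3g averaged -0.37 ± 0.21 in the control group (SD, n = 5) and -0.42 ± 0.40 with HFD+mTAC (SD, n = 5), a difference of -0.05 (two-sided exact permutation test, p = 0.794). The ratio of Ogdh to Dlst, 2 components of the same complex, was 1.11 ± 0.16 (SD, n = 5) against 1.23 ± 0.31 (SD, n = 5) on the same scale (exact permutation test, p = 0.429). For Mdh2 to Cs, the consecutive steps through oxaloacetate, the values were 0.46 ± 0.32 (SD, n = 5) and 0.36 ± 0.34 (SD, n = 5) (exact permutation test, p = 0.611). Adjusted over the 3 ratios, p was 0.794 for each in the exact permutation tests, and the smallest p the design allows is 0.0079. With counts in place of TPM, the differences were -0.0053 for Idh3b to Idh3g, 0.12 for Ogdh to Dlst and -0.0139 for Mdh2 to Cs. Without mouse TT-588 the TPM difference of Ogdh to Dlst was 0.0317. The counts ratio of Mdh2 to Cs was highest in mice TT-587 and TT-591, at 0.98 and 0.99, and between 0.69 and 0.84 in the other mice. That split crossed the groups as well.

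Compared per length, the order of the members depended on which length was used. By deposited TPM, averaged over the 10 mice, Fh1 came first at 142.9, before Idh3g at 132.6, Mdh2 at 123.1, Idh3b at 100.2, Ogdh at 93.9, Cs at 92.6, Suclg1 at 61.3 and Dlst at 41.1. Most neighbours in this order were not apart beyond their spread. Fh1 exceeded Idh3g in 6 of 10 mice, Idh3g exceeded Mdh2 in 6 and Ogdh exceeded Cs in 4, whereas Cs exceeded Suclg1 in 10 of 10. Ranked by mean TPM, the 8 members lay between percentile 96.5 (Dlst) and percentile 98.8 (Fh1) of the genes tested. Divided instead by the longest annotated coding transcript (GENCODE M21), the order was Mdh2 at 1057 CPM per kilobase, Ogdh at 839.6, Cs at 661.1, Idh3b at 566.7, Idh3g at 511.1, Dlst at 335.7, Suclg1 at 248.9 and Fh1 at 197.5. On that scale each member exceeded the next in 9 or 10 of 10 mice. Fh1 was thus first by TPM and last per kilobase of annotated transcript. Its deposited effective length was 483.5 to 605.9 bases, its longest annotated coding transcript has 2636 bases and its shortest has 542. The 2 lengths differed for other members too. The deposited length of Idh3g was also below its longest annotated coding transcript in every mouse, whereas those of Cs, Ogdh, Dlst and Mdh2 were above it. For Idh3b and Suclg1 it lay above in some mice and below in others.

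**Figure D4:**
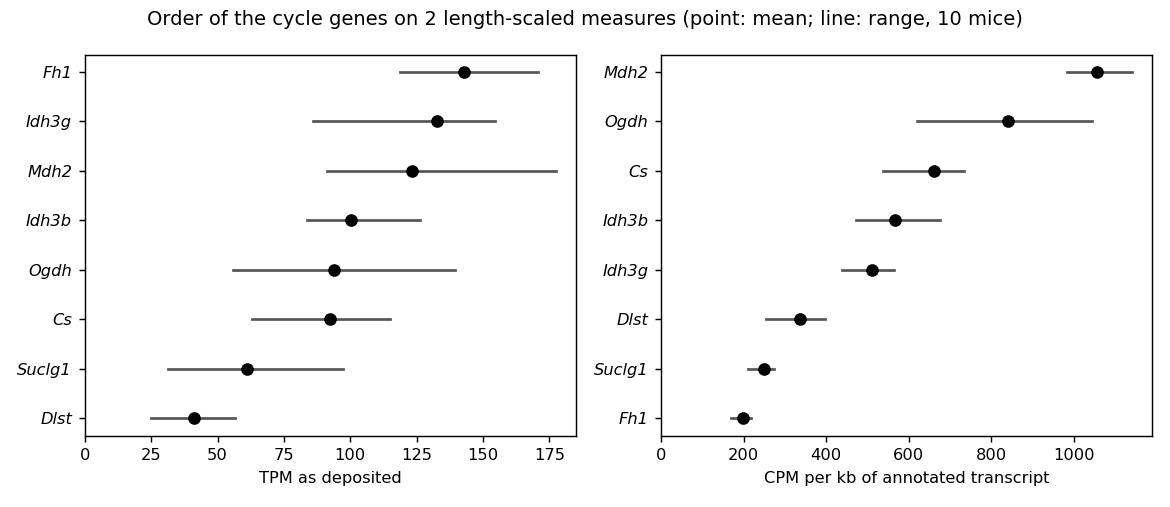
Levels of the 8 tested cycle genes over the 10 mice, as deposited TPM (left) and as CPM per kilobase of the longest annotated coding transcript (right), ordered by mean in each panel. Points are means and lines the range. Fh1 is at the top on the left with 142.9 TPM and at the bottom on the right with 197.5 CPM per kilobase.

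The deposited average effective length of a gene, into which the mix of its transcripts and salmon's corrections for sequence, GC content and position all enter, passed no test between the groups for any member. In limma on log2 lengths, 0 of 8 members had an unadjusted p under 0.05, beside 3.75% of all genes tested, and 0 of 13317 genes had an adjusted p under 0.05. Suclg1 had the most variable length of the members. It was 1890, 787, 1926, 677 and 930.9 bases in the control group and 676.6, 1018, 855.7, 1220 and 703.4 bases in HFD+mTAC mice, a 2.85-fold range. Control mice TT-583 and TT-585 were far above the rest, and the log2 difference was -0.37 (95% interval -1.12 to 0.39, limma adjusted p = 0.733). It was -0.18 without mouse TT-583, -0.17 without TT-585 and -0.55 without TT-586. The TPM of Suclg1 moved the opposite way, to 35.5 and 31.2 in mice TT-583 and TT-585 against 39.6 to 97.4 in the other mice, while its CPM in those 2 mice (385.9 and 413.3) was not low. The fold change of Suclg1 therefore changed sign with the unit, from -0.05 on counts to 0.25 with lengths as an offset in edgeR and 0.38 in limma on log2(TPM + 1), all with adjusted p above the threshold (0.931, 0.881 and 0.864 in the order given).

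**Figure D5:**
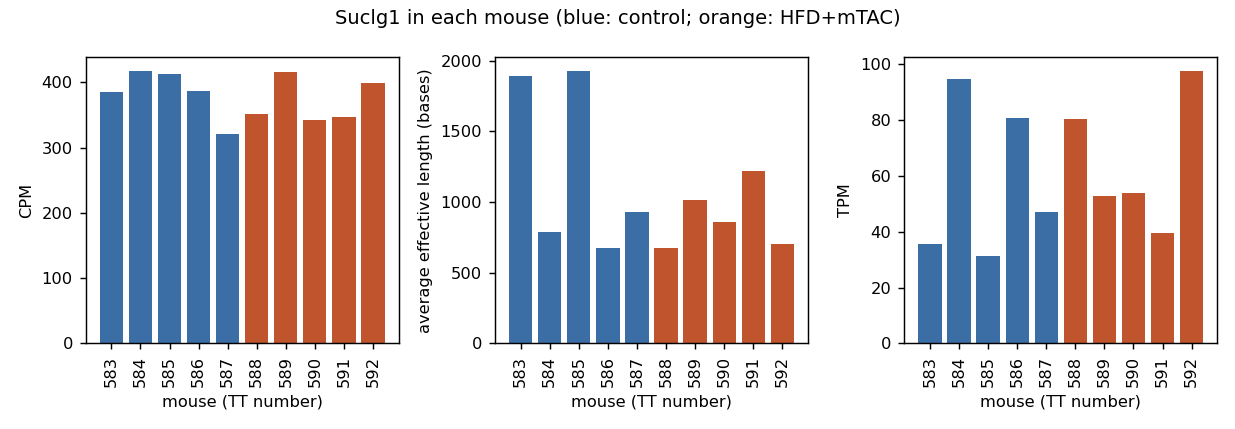
Suclg1 in each of the 10 mice (bars from 0) as CPM, as average effective length in bases and as TPM. Mice TT-583 and TT-585 have lengths of 1890 and 1926 bases and the TPM values 35.5 and 31.2, while their CPM is within the range of the other mice.

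The length differences of the other 7 tested members lay between 0.01 (Idh3g) and 0.13 (Mdh2) on the log2 scale. Idh3b lengths ranged from 1015 to 1764 bases, a 1.74-fold range. Those of Cs stayed between 3003 and 3470 bases. Summed over the 9 members, TPM was 672.8 to 989.6 in control mice and 609.4 to 923.3 in HFD+mTAC mice, and the groups overlapped.

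The other enzymes of the cycle and the pathways that feed it were described from lists of genes. Of 9 further cycle enzymes, 0 had an adjusted p under 0.05 with edgeR and 0 an unadjusted p under 0.05, and their median log2 fold change was -0.03. The groups did not overlap for 1 of the 9, beside 1.91% of all genes. The gene with the smallest p among them was Sdhb, the iron-sulfur subunit of succinate dehydrogenase, at 1098, 1128, 1061, 1076 and 1179 CPM in the control group and 937, 1031, 1045, 1034 and 992.3 CPM in the HFD+mTAC group. Each HFD+mTAC value of Sdhb was below each control value, and the log2 fold change was -0.14 (edgeR adjusted p = 0.661). Sdhd, a membrane anchor of the same enzyme, was at -0.13 (edgeR adjusted p = 0.719). Suclg2, the GTP-specific partner of Suclg1, was at 0.10 (edgeR adjusted p = 0.929). The highest Suclg2 value was in mouse TT-589 and the lowest in mouse TT-587, at 264.5 against 125 CPM.

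Of 13 genes for the pyruvate dehydrogenase complex, its regulators and the pyruvate carrier, 0 passed the adjusted threshold and 2 had an unadjusted p under 0.05 in edgeR, beside 8.25% of all genes. The median log2 fold change of the 13 was -0.04, and 1 had groups that did not overlap, beside 1.91% of all genes. Mpc1, a subunit of the carrier that brings pyruvate into mitochondria, was at 861.3 to 1010 CPM in control mice and 700.8 to 842.9 CPM in HFD+mTAC mice. These ranges did not overlap, and the log2 fold change was -0.25 (edgeR adjusted p = 0.413). Pdk4, a kinase that inhibits the complex, averaged 444.6 ± 153 CPM in the control group (SD, n = 5) and 672.1 ± 219 CPM with HFD+mTAC (SD, n = 5), a log2 difference of 0.60 (edgeR adjusted p = 0.601). HFD+mTAC mice TT-589 and TT-591, at 650.9 and 328.9 CPM of Pdk4, were inside the control range of 266.1 to 651.7 CPM. Pdhb, a subunit of the complex itself, had a log2 fold change of -0.12 and the kinase gene Pdk1 of 0.29 (edgeR adjusted p = 0.743 and 0.651).

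Of 17 genes for anaplerosis, the malate-aspartate shuttle and citrate export, 16 were tested (all but Pck2), 0 passed and 2 had an unadjusted p under 0.05 in edgeR, again beside 8.25% of all genes, with a median log2 fold change of -0.05. Pcx, pyruvate carboxylase, which makes oxaloacetate from pyruvate, averaged 38.7 ± 6.6 CPM in the control group (SD, n = 5) and 29.0 ± 5.1 CPM with HFD+mTAC (SD, n = 5), a log2 difference of -0.42 (edgeR adjusted p = 0.422). Me1, the cytosolic malic enzyme, was at 177 ± 24.1 CPM (SD, n = 5) and 229.7 ± 35.9 CPM (SD, n = 5), a log2 fold change of 0.38 (edgeR adjusted p = 0.418). For both genes the groups overlapped. The cytosolic malate dehydrogenase gene Mdh1 was at -0.15 and the cytosolic isocitrate dehydrogenase gene Idh1 at 0.19 on the log2 scale (edgeR adjusted p = 0.75 and 0.764).
Of 8 genes for cofactor supply, 0 passed and 0 had an unadjusted p under 0.05 in edgeR, with a median log2 fold change of 0.03. Lias and Lipt2, which supply the lipoyl group that the Dlst protein carries, had log2 fold changes of -0.15 and -0.14 (edgeR adjusted p = 0.763 and 0.923). Nnt, the nicotinamide nucleotide transhydrogenase, was at 593.3 and 599.5 CPM in control mice TT-583 and TT-584 and at 995.2 to 1596 CPM in the other 8 mice, with a log2 fold change of 0.25 (edgeR adjusted p = 0.872).

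The genes whose TPM profile over the 10 mice was most like the mean of the 9 members, among 1546 protein-coding genes with a mean of at least 10 TPM, were Laptm4a, Hspa9, Dnajc7, Cltc and Hnrnpm. Their root mean square differences in z-score from the mean of the members were 0.42, 0.44, 0.44, 0.44 and 0.44. The measure covers 10 mice, and the mean of the members includes Idh3a with its 8 values of 0. Hspa9, the mitochondrial matrix chaperone, ran from 21.95 TPM in mouse TT-591 to 46.5 TPM in mouse TT-584, and like the other 4 genes it did not pass the test between the groups (edgeR adjusted p = 0.908). Hspa9 and the other 4 genes all had their highest TPM in mice TT-583, TT-584 and TT-592, as did the summed TPM of the 9 members. In these mice the mitochondrial genome took its lowest shares of counts, at 43.79, 44.04 and 46.4%. The part of that share in the likeness was not tested.

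Total estimated counts were 34170139 to 53672260 per mouse, of which 12.66 M to 21.08 M fell on genes tested, and genes of the mitochondrial genome took 43.8 to 52.7%. Each of the 8 tested members had at least 4118 counts in every mouse, so that counting error was small beside the spread between mice. The 9 cardiomyocyte markers summed to 17460 to 21550 TPM in control mice and 15010 to 17690 TPM in HFD+mTAC mice, with 0 of 9 called and a median log2 fold change of -0.20. The sums were 90.1 to 159.5 against 75.6 to 122.7 TPM for 6 fibroblast markers, 84.1 to 152.7 against 67.3 to 139.1 TPM for 6 endothelial markers, 30.8 to 66.9 against 33.7 to 44.5 TPM for the 5 macrophage markers listed of 6, and 59.8 to 112.6 against 48.1 to 94.9 TPM for 5 mural markers. The 4 atrial markers summed to 82.3 to 142.7 against 47.3 to 129.5 TPM, and the 5 adipocyte markers stayed at or under 0.70 TPM in every mouse. All these sums are of deposited TPM, scaled to totals that include the mitochondrial genome. Its share of counts was 43.79 to 50.93% in control mice and 46.4 to 52.66% in HFD+mTAC mice. The part of that share in the sums was not tested, and the fold changes come from counts of the genes tested only. Median log2 fold changes were 0.05 for the fibroblast, -0.01 for the endothelial, 0 for the macrophage, -0.30 for the mural and -0.48 for the 2 atrial markers that were tested, and no adipocyte marker reached the filter. None of the markers tested was called in edgeR, and an unadjusted p under 0.05 was seen for 1 cardiomyocyte and 1 fibroblast marker. The part of these differences in the values of the members was not tested.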

How the data were processed

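Polyadenylated RNA of left ventricles from 5 control and 5 HFD+mTAC mice was sequenced with a stranded kit. The authors trimmed the reads and estimated transcript abundances with salmon 1.6.0 on GENCODE mouse transcripts, then summed them to genes with tximport. The authors deposited estimated counts per gene without normalization, TPM values (per length and per library total), and for each gene the mean effective length of its transcripts in bases. The labels name hg38 as the build, whereas the methods name GRCm38. Labels and methods also differ on read layout.

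The rounded counts were fitted with edgeR 4.0.16 under R 4.3.3 (TMM, quasi-likelihood F test, Benjamini-Hochberg adjustment, threshold 0.05). Tested were protein-coding genes of the nuclear genome with at least 1 count in 9 of 10 mice. Biotypes came from GENCODE M21 (27812 genes matched) and RefSeq (923), and 829 genes did not match. The alternatives were limma 3.58.1 on log2(TPM + 1), DESeq2 1.42.0, other normalizations and filters, lengths as an offset and the omission of each mouse. Effective lengths were tested with limma. For ratios, exact permutation tests (two-sided) were used. The edgeR, DESeq2 and limma tests were tested on simulated data.

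Groups come from the sample titles. The labels do not say whether mice shared a litter or a batch. Libraries of 1 group differed pairwise by a chi-square per degree of freedom of at least 12.9, so none holds the same counts as another of its group. Pairs across the groups were not compared in this way, and whether 2 libraries share a mouse was not tested. Named genes are all members, the 2 genes of smallest p in each direction of each further list, and the 5 genes most like the members. Some genes that this rule selects are not reported here. The members and lists were chosen with earlier results of these data known. Intervals are for the difference between the groups, with an error estimated from the spread between mice.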

Additional observations from a re-analysis of the deposited data

How the results depend on the processing

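The number of members called was 0 under all alternatives run, and the smallest adjusted p of a member was 0.629. Of 176 fold changes of members under an alternative, 154 kept the direction of the edgeR value. With library totals only, Idh3b was at 0.0023, Idh3g at 0.0046 and Dlst at 0.0223 on the log2 scale. In limma on log2(TPM + 1), Idh3g was at 0.0301, Dlst at 0.0134 and Suclg1 at 0.3827, and with a pseudocount of 0.1 they were at 0.0301, 0.0135 and 0.3838. With lengths as an offset, Idh3g was at 0.0068 and Suclg1 at 0.2485. With the balance of long and short transcripts as a covariate, added after the data were seen, Ogdh was at -0.0383. Omission of each mouse in turn gave -0.0848 to 0.0248 for Cs, -0.1068 to 0.0259 for Idh3b, -0.0703 to 0.0194 for Idh3g, 0.0638 to 0.2324 for Ogdh, -0.0950 to 0.0507 for Dlst, -0.1059 to -0.0228 for Suclg1, -0.1124 to -0.0212 for Fh1 and -0.0816 to -0.0347 for Mdh2, -0.1619 to 0.0477 for the Idh3b to Idh3g ratio, 0.0317 to 0.2140 for Ogdh to Dlst, -0.2353 to -0.0098 for Mdh2 to Cs, and log2 length differences of -0.0140 to 0.1651 for Idh3b, -0.0628 to 0.0630 for Idh3g, -0.0139 to 0.1123 for Ogdh and -0.5503 to -0.1732 for Suclg1. The median over the members was -0.0013 with library totals only and -0.0935 with the covariate. Without HFD+mTAC mouse TT-591, Cs, Idh3b, Idh3g and Dlst were all above 0, at 0.0248, 0.0259, 0.0194 and 0.0304, and the cause was not tested. Over all genes, 9 were called by edgeR, 120 by DESeq2, 24 with the covariate, 1 by limma and 1 with lengths as an offset, and 1 to 9 with a mouse omitted. No paired analysis was possible because the groups share no replicate number.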

Other observations

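Idh3a is at 0 in 8 of the 10 mice, so the mean profile of the 9 members is partly set by it. With the 8 tested members as the reference, a choice made after the data were seen, the genes nearest in profile were Actc1 (root mean square z-score difference 0.32), 0610009O20Rik (0.32), Acss1 (0.33), Dnaja2 (0.33) and D10Jhu81e (0.33), and 0 of these 5 were among the 5 nearest to the 9 members. Actc1 encodes cardiac actin and Acss1 a mitochondrial acetyl-CoA synthetase. The TPM of Acss1 was lowest in mouse TT-591 (8.10) and highest in mouse TT-584 (17.9). All 5 genes had their highest TPM in mice TT-583, TT-584 and TT-592, where the mitochondrial genome took the lowest share of counts. None passed the edgeR test between the groups, with adjusted p from 0.547 for Dnaja2 to 0.997 for D10Jhu81e.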
